A study of Mus musculus with 4 samples.

Results

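A panel of 56 leukocyte marker genes was examined on 4 arrays of sorted β-cells, to see how much immune-cell RNA was carried over from islets that leukocytes infiltrate. The genes were taken by their symbols, as 15 pan-leukocyte genes, 16 genes of T and NK cells, 5 genes of B cells and 20 genes of macrophages and dendritic cells (DCs). A feature of the array represented a gene when its annotation gave that symbol alone. This held for 54 of the 56 genes, among 30176 genes measured by the same rule, and each of the 54 had 1 feature. *Lck* and *Spi1* had no feature annotated with their symbol alone and were not analysed here.

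The samples were β-cells of female non-obese diabetic (NOD) mice, either wild type (Tyk2+/+) or *Tyk2* gene knockout (Tyk2-/-), taken at 6 weeks (6w) or 11 weeks (11w) of age, with 1 array for each of the 4 groups. TYK2 is a Janus kinase that carries signals of type I interferon and interleukin receptors. The knockout allele came from another mouse strain and was crossed onto NOD, and by the study's typing of strain markers a locus on chromosome 9, which holds *Tyk2*, was not of NOD origin. The knockout affects every cell of the animal, leukocytes included. Each sample was a pool of islet cells from several mice, sorted as positive for the zinc dye FluoZin-3-AM and the mitochondrial dye TMRE and negative for CD45 and for propidium iodide, which stains dead cells. As each group is 1 array of 1 pool, no replicate error can be given and no difference was tested.

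CD45, the antigen used to remove leukocytes, is the transmembrane tyrosine phosphatase encoded by *Ptprc* and is carried by nearly all nucleated blood cells. The panel follows the way such cells are told apart. CD3 chains and the coreceptors CD4 and CD8 mark T cells, granzymes and perforin mark killer cells, CD79 chains of the antigen receptor and CD20 mark B cells, and lysozyme, F4/80, complement C1q and the integrins CD11b and CD11c mark macrophages and DCs. In NOD islets, macrophages and DCs are resident or early cells, and T and B cells gather around and within the islets as disease develops.

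The regulatory sequence of these genes is known for binding sites of the ETS factors, such as PU.1, and of RUNX factors, which are used across blood cell types. Promoter windows of 300 bases (250 before and 50 after the start of a gene, RefSeq, GRCm38.p6) were at hand for 37 of the 54 measured genes, in 42 windows. The letters AGGAAG, an ETS core, stood on either strand in 26 of the 42 windows (61.9%) and in 34.4% of the 21263 windows of all protein-coding genes. TGTGGT, a RUNX core, stood in 14 (33.3%) against 15.0%, and the interferon response element, written as GAAA on each side of 2 bases of any kind, in 4 (9.52%) against 3.35%. In 91 windows of the further leukocyte genes described below, the 3 shares were 49.5%, 25.3% and 6.59%. Each lay between that of the panel and that of all genes. The 42 windows of the panel held a median of 5 CpG, against 13 in all windows, so most of these promoters are poor in CpG. A match is a description of the letters and no measure of binding. The 200 bases before the start are shown for *Ptprc*, the gene of the sort antigen, and for *Cd48*, *Ptpn6* and *Aif1*. The last 3 are the members called different between arrays by the rule given below. Matches to any of the 3 motifs are in capitals. No matches overlap in these stretches.
Ptprc chr1:138175306-138175505, minus strand: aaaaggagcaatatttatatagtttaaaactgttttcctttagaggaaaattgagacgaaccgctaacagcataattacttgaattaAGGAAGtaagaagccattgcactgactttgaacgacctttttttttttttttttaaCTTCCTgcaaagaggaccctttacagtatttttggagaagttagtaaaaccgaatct
Cd48 chr1:171681792-171681991, plus strand: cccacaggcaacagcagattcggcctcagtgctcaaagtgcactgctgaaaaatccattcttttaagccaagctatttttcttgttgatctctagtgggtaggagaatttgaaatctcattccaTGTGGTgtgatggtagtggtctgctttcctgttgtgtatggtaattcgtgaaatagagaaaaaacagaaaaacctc
Ptpn6 chr6:124738710-124738909, minus strand: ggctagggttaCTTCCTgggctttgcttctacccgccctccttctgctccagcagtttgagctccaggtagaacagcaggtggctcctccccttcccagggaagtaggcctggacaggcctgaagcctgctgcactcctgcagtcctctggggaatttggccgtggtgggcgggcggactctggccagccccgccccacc
Aif1 chr17:35176053-35176252, minus strand: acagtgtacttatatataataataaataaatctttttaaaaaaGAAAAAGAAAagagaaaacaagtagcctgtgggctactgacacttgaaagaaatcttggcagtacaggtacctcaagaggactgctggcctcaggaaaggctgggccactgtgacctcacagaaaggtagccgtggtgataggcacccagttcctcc
The *Ptprc* stretch held 2 matches to the ETS core, the *Ptpn6* stretch held 1, the *Cd48* stretch held 1 to the RUNX core, and the *Aif1* stretch held 1 to the interferon response element. *Ptprc* has 2 windows in the table and the first was used.

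Signals were read against 2 levels of the same array. The median of all 65956 features was 15.7 and 16.2 at 6w and 17.3 and 17.5 at 11w, each time with Tyk2+/+ before Tyk2-/-. Lists of 4 values are in this order throughout. The 95th percentile of 1435 genes of olfactory, vomeronasal and taste receptors, taken as a reference for dim genes although single members of these families have been described in islet cells and leukocytes, was 21.4, 22.9, 25.8 and 26.6. Signals of different genes come from different probes and are not ranked as amounts of RNA here. Of the β-cell markers, *Ins2* (insulin) stood far above these levels, with signals of 101685, 97214, 93930 and 98683. *Slc2a2* (the glucose transporter GLUT2) had 79.1, 34.5, 21.7 and 33.6 and was below the sensory receptor level in 11w Tyk2+/+. *Pdx1*, a transcription factor of β-cells, had 15.7, 14.8, 17.5 and 16.1 and *Mafa*, another, had 14.1, 12.9, 12.4 and 18.8, so a signal near the array median does not show that a gene was silent. The table holds no call of whether a signal was above background. *Ins1* was not analysed here. *Tyk2* had 15.5, 16.8, 18.8 and 17.1, and since the place of its feature in the gene is not known, this does not check the genotype.

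The leukocyte markers stood low on all 4 arrays. Signals above the array median were found for 19 (35.2%), 13 (24.1%), 16 (29.6%) and 18 (33.3%) of the 54 genes. Of all genes, 57.1%, 56.5%, 55.5% and 55.3% were above it, and of the sensory receptor genes 20.1%, 22.8%, 24.5% and 24.1%. The panel thus lay between the sensory receptor genes and all genes, nearer to the former. More than 2 times the array median was reached by no member on the 6w arrays, by *Ptpn6* and *Lyz2* in 11w Tyk2+/+ and by *Arhgdib* in 11w Tyk2-/-, and more than 4 times by none on any array. Of all genes, 25.1%, 24.4%, 22.4% and 22.5% were above 2 times the median. The 95th percentile of the sensory receptor genes was passed by 2, 2, 5 and 2 members. These were *Arhgdib* and *Batf3* on both 6w arrays, *Cd48*, *Arhgdib*, *Ptpn6*, *Lyz2* and *Aif1* in 11w Tyk2+/+, and *Arhgdib* and *Lyz2* in 11w Tyk2-/-. In a bulk sample, fewer leukocytes and less RNA per leukocyte cannot be told apart.

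**Figure D1:**
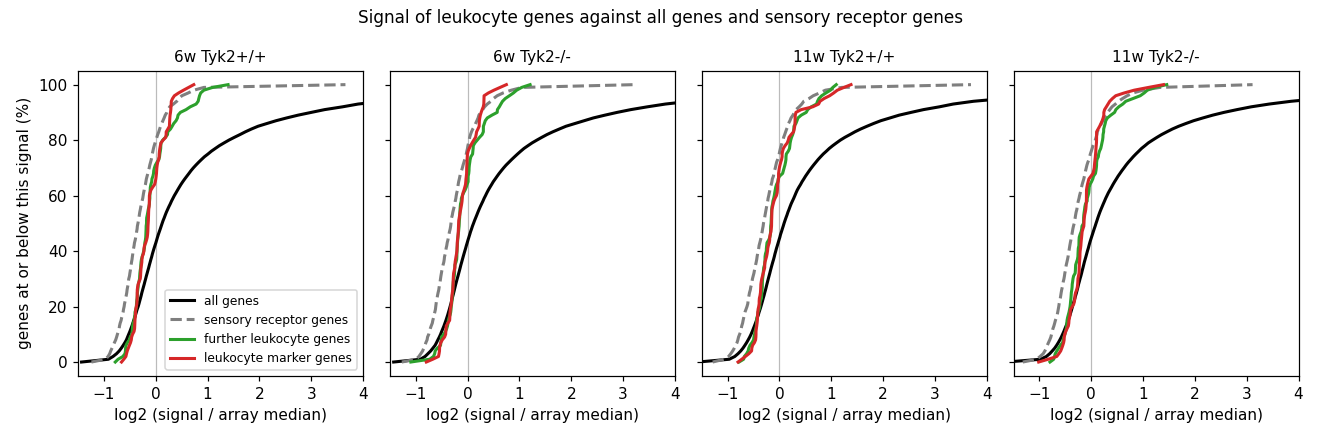
Cumulative share of genes (%) at or below a signal, given as log2 of the signal over the array median, for the 54 leukocyte markers (red), 89 further leukocyte genes (green), 1435 sensory receptor genes (grey dashes) and all 30176 genes (black), 1 array per panel. The red curves rise steeply near 0 and end below 1.5 on every array, while the black curve reaches far higher; the x axis stops at 4.

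The median signal of the panel was 14.2, 14.4, 15.6 and 15.8. The lowest member had 9.91 (*Cd68*), 9.33 (*Ifng*), 9.97 (*Tyrobp*) and 8.64 (*C1qb*), and the highest 26.1 (*Arhgdib*), 27.2 (*Arhgdib*), 45.2 (*Ptpn6*) and 45.9 (*Arhgdib*). On all 4 arrays, 11 members were above the array median and 31 below it, and 12 lay on both sides. Over the 4 arrays a member's signal ranged over a median of 0.26 on the log2 scale, against 0.37 over all genes. Most members are dim, and over all genes the differences between arrays were narrower at low signal. The medians were not taken at like signal. The range was under 0.5 for 47 of the 54 genes, with *Cd3g* the narrowest at 0.07, and over 1 for *Cd48* and *Ptpn6* alone.

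**Figure D2:**
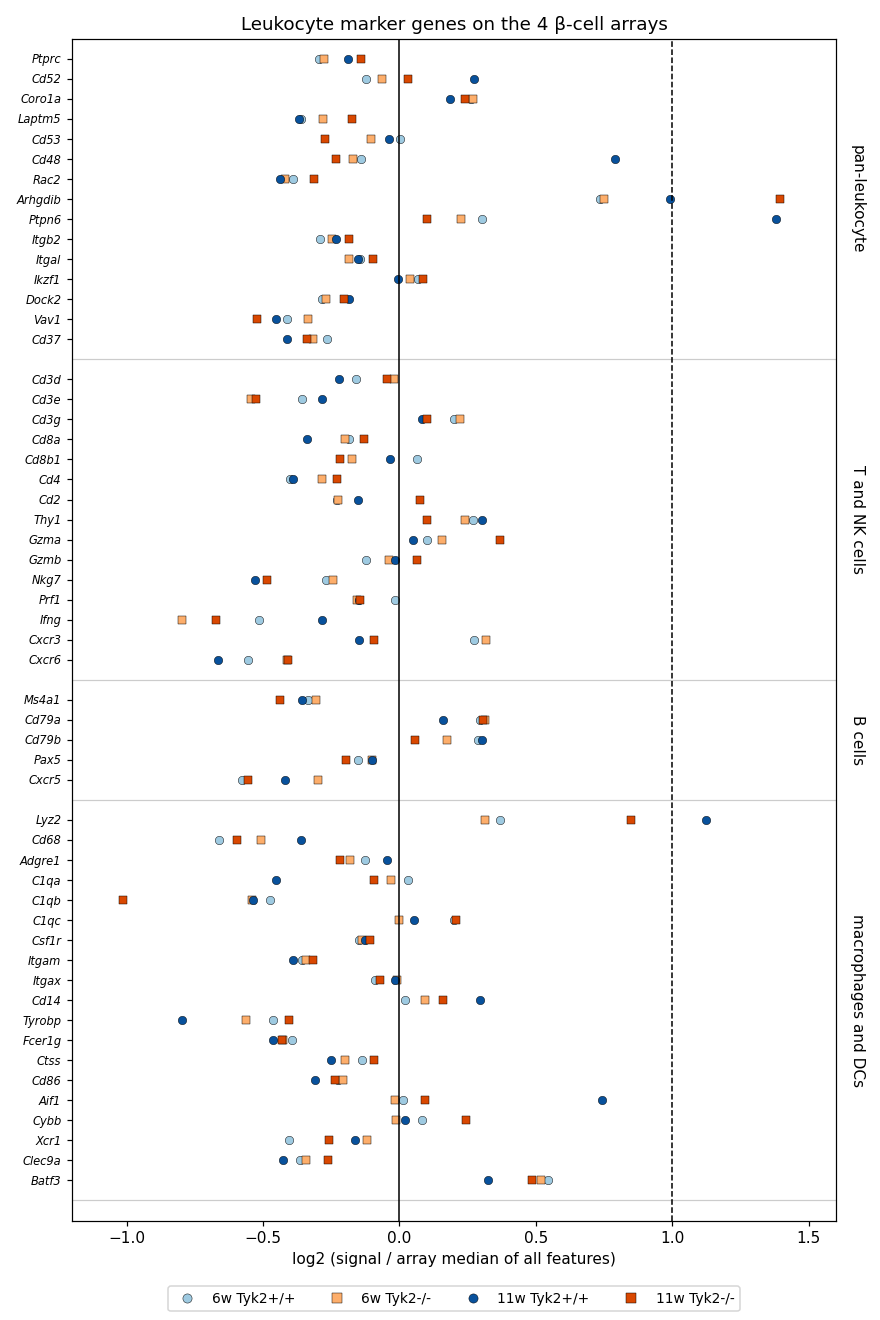
Signal of the 54 leukocyte markers on the 4 arrays as log2 of the signal over the array median (solid line at 0, dashed line at 2 times the median), ordered by cell type, with 1 point per array. Most points lie left of 0, and the points of *Cd48*, *Ptpn6* and *Aif1* in 11w Tyk2+/+ stand apart from the other 3 arrays of their gene.

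*Ptprc* itself had signals of 12.8, 13.4, 15.2 and 15.9. These were 0.82, 0.83, 0.88 and 0.91 times the array median and stood at the 23.0, 24.3, 31.8 and 35.6 percentile of all genes. The signals were larger at 11w than at 6w in both genotypes, by 0.25 on the log2 scale in each, while the array medians themselves moved by 0.15 in Tyk2+/+ and 0.11 in Tyk2-/-. None of these differences was called.

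Among the pan-leukocyte genes, *Arhgdib*, which is abundant in blood cells, had signals of 26.1, 27.2, 34.5 and 45.9. It was the sole member above the sensory receptor level on all 4 arrays, and its age differences of 0.41 (Tyk2+/+) and 0.75 (Tyk2-/-) were not called. *Coro1a* (coronin-1A, an actin regulator) stood slightly above the median on each array, at 18.8, 19.6, 19.7 and 20.7. *Ikzf1* (the lymphoid transcription factor Ikaros) had 16.4, 16.7, 17.3 and 18.5, at or near the median. *Cd52*, a small glycoprotein of lymphocytes and macrophages, had 14.4, 15.5, 21.0 and 17.9 and crossed the median at 11w, with age differences of 0.54 and 0.20 that were not called. *Laptm5*, *Rac2*, *Itgb2* and *Itgal* (the chains of the integrin LFA-1), *Dock2*, *Vav1* and *Cd37* were below the median on every array, with signals between 11.8 and 16.3. *Cd53*, a tetraspanin, stood at the median in 6w Tyk2+/+ (15.7) and below it elsewhere (15.1, 16.9 and 14.5).

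*Cd48* and *Ptpn6* were the pan-leukocyte genes that were called. *Cd48* encodes a surface protein of lymphocytes and myeloid cells that binds the receptor 2B4. It had signals of 14.2, 14.4, 30.0 and 14.9, so 11w Tyk2+/+ stood alone above 3 arrays that lay close together. *Ptpn6* encodes SHP-1, a tyrosine phosphatase that dampens antigen and cytokine receptor signals. It had 19.3, 19.0, 45.2 and 18.8, again high in 11w Tyk2+/+ alone. *Ptpn6* is also transcribed in epithelial cells, so it is a less strict leukocyte marker than *Ptprc*.

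The defining T cell genes stood below the median. *Cd3e*, a signalling chain of the T cell receptor, had 12.2, 11.1, 14.2 and 12.1. *Cd8a*, the coreceptor of cytotoxic T cells, had 13.8, 14.1, 13.7 and 15.97, and *Cd4*, that of helper T cells, had 11.9, 13.3, 13.2 and 14.9. All 3 were below the median on every array. Of the other CD3 chains, *Cd3d* had 14.0, 15.99, 14.9 and 16.9, also below, and *Cd3g* had 18.0, 18.9, 18.4 and 18.8, just above. *Cd8b1*, the second CD8 chain, had 16.4, 14.4, 16.9 and 15.0. *Thy1*, which fibroblasts and neurons carry as well, had 18.9, 19.1, 21.4 and 18.7, above the median on each array. The chains of 1 receptor thus stood on different sides of the median, each read by its own probes.

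The killer cell genes *Gzma*, *Gzmb* and *Prf1*, which encode granzymes and perforin, had no called difference. *Gzma* had 16.8, 18.1, 18.0 and 22.5, *Gzmb* 14.4, 15.8, 17.1 and 18.3, and *Prf1* 15.5, 14.6, 15.7 and 15.8. *Ifng*, the cytokine interferon-γ, had 11.0, 9.33, 14.3 and 11.0 and was among the lowest members on both Tyk2-/- arrays, at the 2.4 and 5.9 percentile of all genes. *Nkg7*, a granule protein, and *Cxcr6*, a chemokine receptor of effector T cells, were below the median throughout, between 10.7 and 13.7. *Cxcr3*, the receptor for CXCL9 and CXCL10, had 18.9, 20.2, 15.7 and 16.4: it was above the median on both 6w arrays and below it on both 11w arrays, and its age differences of −0.27 and −0.30 were not called. *Cd2*, an adhesion receptor of T and NK cells, had 13.4, 13.9, 15.6 and 18.4. No T or NK cell gene passed the sensory receptor level on any array.

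Nor did any of the 5 B cell genes. *Ms4a1* (CD20) had 12.4, 13.1, 13.5 and 12.9 and was below the median on every array. *Cd79a* and *Cd79b*, the signalling chains of the B cell receptor, were above it on every array, at 19.2, 20.1, 19.4 and 21.6 and at 19.1, 18.3, 21.4 and 18.2. *Pax5*, the transcription factor that holds B cell identity, had 14.1, 15.1, 16.2 and 15.3, and *Cxcr5*, the receptor for CXCL13, had 10.5, 13.2, 13.0 and 11.9.

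Among the macrophage and DC genes, *Aif1* alone was called. It encodes IBA1, an actin-binding protein of macrophages, and had signals of 15.8, 16.01, 29.0 and 18.6, with 11w Tyk2+/+ above the others. *Lyz2*, the lysozyme of macrophages and neutrophils, had 20.2, 20.2, 37.8 and 31.5, so that both 11w arrays stood above both 6w arrays. Its age differences of 0.90 in Tyk2+/+ (Z of 1.70) and 0.64 in Tyk2-/- (Z of 1.38) were not called. The near-identical gene *Lyz1*, named here after its values were seen, had 16.9, 15.4, 21.8 and 16.2, and probes of the pair may share signal.

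Of the other macrophage and DC genes, none was called in any comparison. *Adgre1* (F4/80) had 14.4, 14.3, 16.8 and 15.0, below the median on every array. The complement genes *C1qa*, *C1qb* and *C1qc* are carried by tissue macrophages in a fixed assembly, and *C1qa* had 16.03, 15.9, 12.7 and 16.4, with its lowest signal in 11w Tyk2+/+. *C1qb* had 11.3, 11.1, 11.9 and 8.64 and *C1qc* 18.0, 16.2, 18.0 and 20.2. *Cd68*, a lysosomal protein of macrophages, had 9.91, 11.4, 13.5 and 11.6. *Csf1r*, the receptor for macrophage colony-stimulating factor, had 14.1, 14.7, 15.9 and 16.2, and *Itgam* (CD11b) had 12.2, 12.8, 13.2 and 14.0. *Tyrobp* and *Fcer1g*, adaptors of activating receptors, lay between 9.97 and 13.2, and *Tyrobp* had its lowest signal in 11w Tyk2+/+. *Ctss*, a protease of antigen processing, and *Cd86*, a costimulatory ligand, lay between 13.4 and 16.4 and below the median on every array.

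*Cd14*, a receptor for bacterial lipopolysaccharide, had 15.9, 17.3, 21.3 and 19.5, above the median on each array. *Cybb*, the catalytic chain of the phagocyte NADPH oxidase, had 16.6, 16.1, 17.6 and 20.7. Of the DC genes, *Itgax* (CD11c) had 14.7, 16.1, 17.1 and 16.6. *Xcr1* and *Clec9a*, receptors of the cross-presenting DC subset, had 11.8, 14.9, 15.5 and 14.6 and 12.2, 12.8, 12.9 and 14.6. *Batf3*, a transcription factor of that subset, was above the median on every array, at 22.9, 23.2, 21.7 and 24.5, and its 2 companion markers were below it on every array.

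**Figure D3:**
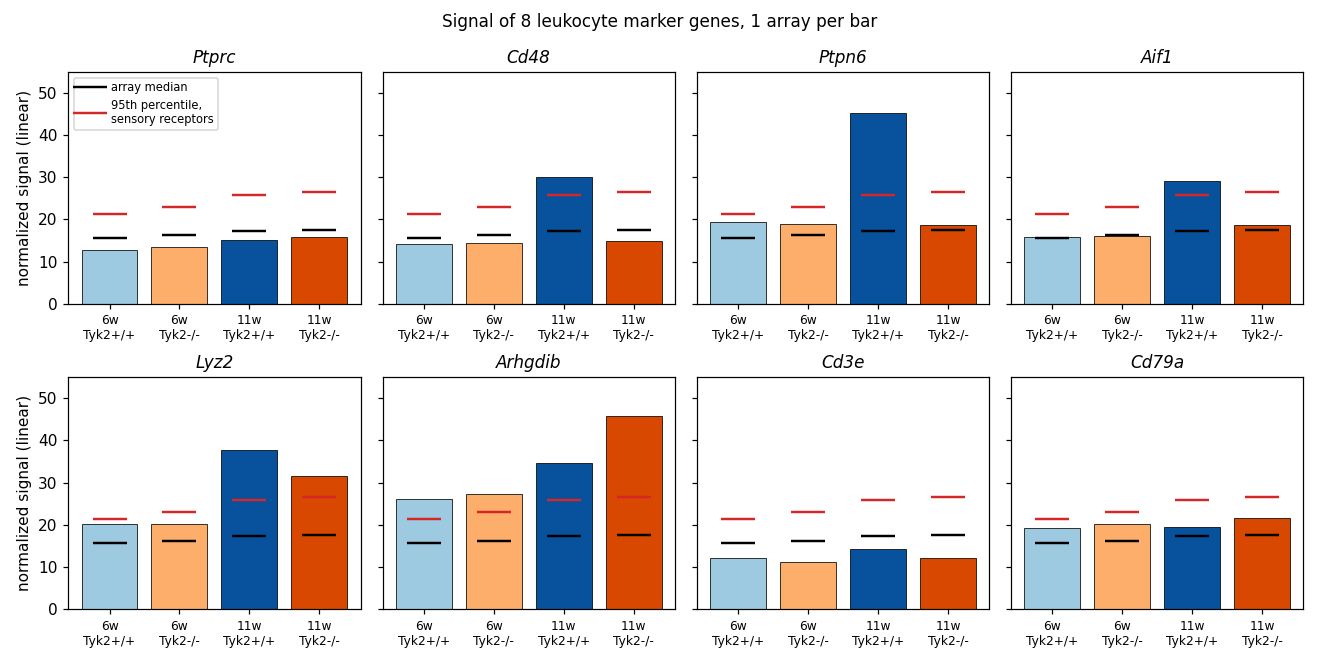
Normalized signal (linear, from 0) of 8 leukocyte markers, 1 bar per array, with the array median (black dash) and the 95th percentile of the sensory receptor genes (red dash). In 11w Tyk2+/+ the bars of *Cd48* (30.0), *Ptpn6* (45.2) and *Aif1* (29.0) pass the red dash, while *Ptprc*, *Cd3e* and *Cd79a* stay below it on all 4 arrays.

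Each array was compared with the array of the other age and of the other genotype, to see whether leukocyte transcripts differed between the samples. A gene was called higher with a Z score above 2 and a ratio above 1.5 and lower with a Z score below −2 and a ratio below 0.66, where Z is the log2 difference over the SD of such differences among the features nearest in signal. The comparisons share arrays, so 1 array enters 2 of them.

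With age in Tyk2+/+, *Cd48* (1.08 on the log2 scale, Z of 2.50), *Ptpn6* (1.23, Z of 2.18) and *Aif1* (0.87, Z of 2.15) rose and no member fell. That is 3 of 54 genes (5.56%), beside 2.14% of all genes called in the upward and 1.45% in the downward direction. Of the sensory receptor genes, which are dim like the members, 7.32% were called upward and 0.418% downward, so the members' share stood between those of both groups. Between the ages of Tyk2-/- mice, no member was called (1.62% of all genes higher and 1.35% lower), and the differences of these genes were 0.05, −0.02 and 0.22. Between the genotypes at 11w, *Cd48* (−1.02, Z of −2.77) and *Ptpn6* (−1.27, Z of −2.51) were lower in Tyk2-/-, and no member was higher, beside 1.35% and 1.51% of all genes. The 2 genes are 3.70% of the members, and 3.62% of the sensory receptor genes were lower. None of the 7 members on chromosome 9, *Cd3d*, *Cd3e*, *Cd3g*, *Thy1*, *Cxcr6*, *Cxcr5* and *Xcr1*, was called. *Aif1* differed by −0.64 (Z of −1.74) and was not called. At 6w no member was called between the genotypes, beside 1.26% of all genes higher and 1.09% lower, and the 3 genes differed by 0.02, −0.03 and 0.02. All of these calls rest on the 11w Tyk2+/+ array. With age in Tyk2+/+, centring each array on its median left the call of *Cd48* alone, 1 SD for all features left that of *Ptpn6* alone, and *Aif1* lost its call under all of the alternatives that could alter it but the filter on dim genes.

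**Figure D4:**
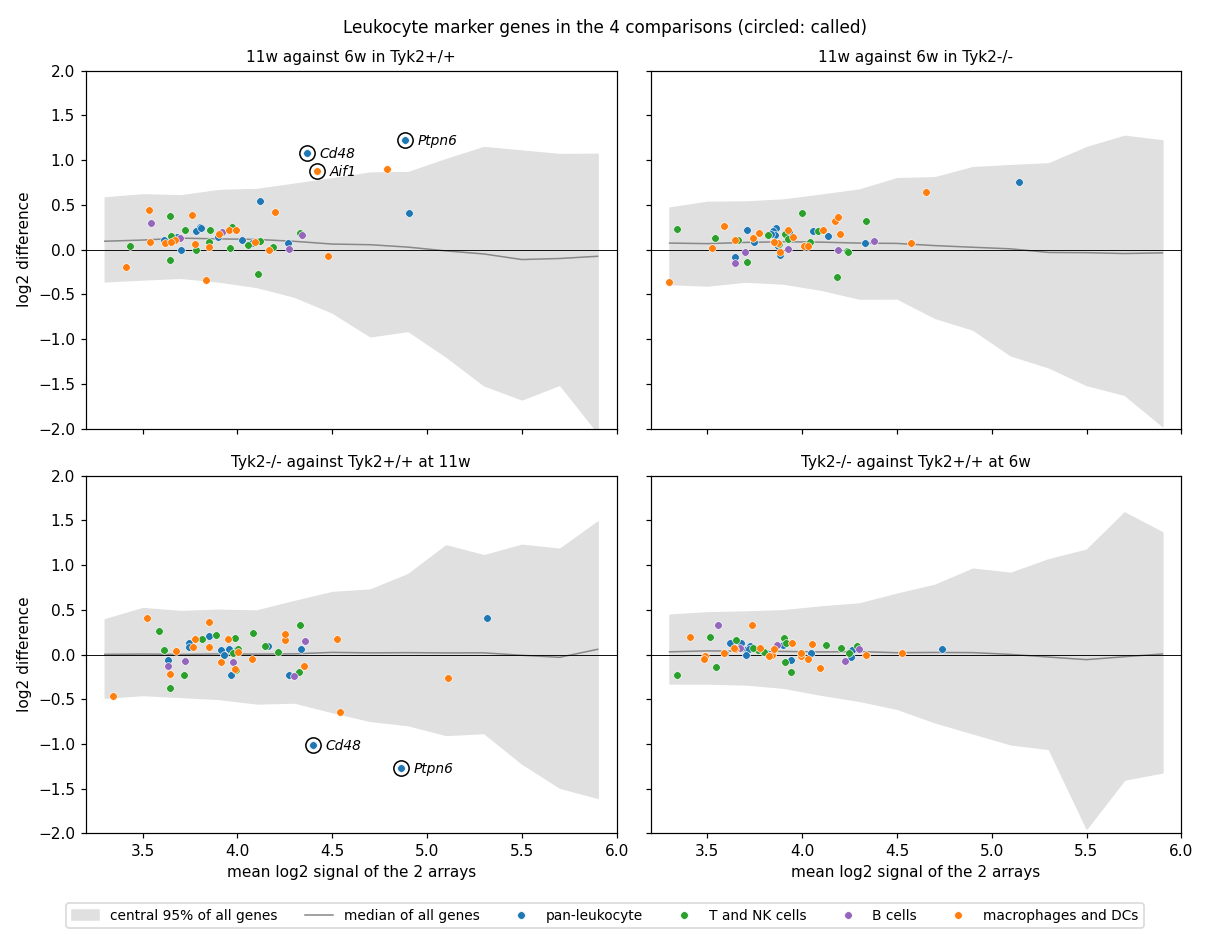
Log2 difference of each of the 54 leukocyte markers against its mean log2 signal in the 4 comparisons, coloured by cell type, with the central 95% and the median of all genes at like signal in grey. Called members are circled: *Cd48*, *Ptpn6* and *Aif1* with age in Tyk2+/+, *Cd48* and *Ptpn6* between the 11w genotypes, and none in the others.

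A rule set after the values were seen counted the genes whose signal on 1 array was over 1.5 times that on each of the others. In 11w Tyk2+/+ this held for 3 members (5.56%), again *Cd48*, *Ptpn6* and *Aif1*. It held there for 1.27% of all genes and 1.53% of the sensory receptor genes. On the other arrays it held for no member, beside 2.39% of all genes for the 6w Tyk2+/+ array and 1.6% (6w) and 1.68% (11w) for the Tyk2-/- arrays. The 3 genes lie on chromosomes 1, 6 and 17. On that array, 38 of the 54 members were below the median of 17.3, among them *Ptprc* (15.2), *Cd3e* (14.2) and *Adgre1* (16.8), and 16 were above it. *Lyz2* (37.8), *Cd52* (21.0) and *Cd14* (21.3) had the highest of their 4 signals there as well, and *C1qa* (12.7) and *Tyrobp* (9.97) had their lowest. On the deposited scale 20 members were highest on that array and 29 on the 11w Tyk2-/- array. Of the genes of other cell types, the pericyte marker *Pdgfrb* (16.9, 15.97, 26.2 and 17.2), chosen after its values were seen, met the same rule on that array. It is 1 of 9 fibroblast and pericyte markers measured, of which 9, 8, 9 and 8 were above the array median. Their signals summed to 18260, 9392, 14419 and 19385, mostly from *Dcn*, a matrix proteoglycan of fibroblasts, at 15275, 8375, 12360 and 14257. Further markers of other cell types were called in the same comparisons. With age in Tyk2+/+ the β-cell genes *Slc2a2* (−1.86), *Ucn3* (−5.57) and *G6pc2* (−2.79) fell, 3 of 9 measured. By the rule above, these 3 and *Nkx6-1* were high on the 6w Tyk2+/+ array alone, 4 of 9 (44.4%). Between the genotypes at 6w, *Ucn3* (−5.6) and *G6pc2* (−2.67) were also called lower in Tyk2-/-. The falls of these β-cell genes with age thus cannot be told from a high signal on the 6w Tyk2+/+ array alone. At 6w the acinar gene *Prss2* (−1.11) and the fibroblast gene *Dpt* (−2.90) were called lower in Tyk2-/- as well. *Dpt* had signals of 2577, 345, 1758 and 4756 and was called higher with age in Tyk2-/- (3.78). At 11w the acinar genes *Cela2a* (0.84), *Clps* (1.80), *Sycn* (1.24) and *Gp2* (0.92), 4 of 15, and *Mafa* (0.60) were higher in Tyk2-/-. So was *Plvap* (0.75), 1 of 10 endothelial genes, which was below the array median on all arrays and is named after its values were seen. These acinar genes (26.7%) and *Plvap* were high on the 11w Tyk2-/- array alone by the rule above. All of them but *Clps* were also called higher with age in Tyk2-/-. Their genotype differences thus cannot be told from a high signal on that array alone. The part of other cell types in the signals of *Cd48*, *Ptpn6* and *Aif1* was not tested.

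Over the whole panel, the called genes included, the median log2 difference of the 54 members was 0.12 with age in Tyk2+/+ and 0.11 in Tyk2-/-, against 0.07 and 0.05 over all genes, and the array medians moved by 0.15 and 0.11 in the same comparisons. Relative to the array median, the panel therefore moved by −0.03 and 0.01. Positive age differences in both genotypes were found for 36 of the 54 genes (66.7%), beside 41.5% of all genes and 47% of the sensory receptor genes, while both array medians rose. Between the genotypes the median was 0.06 at 11w and 0.06 at 6w, against 0.01 and 0.03 over all genes. By group, the age medians in Tyk2+/+ were 0.14 for pan-leukocyte, 0.08 for T and NK cell, 0.16 for B cell and 0.09 for macrophage and DC genes, and in Tyk2-/- they were 0.17, 0.12, −0.01 and 0.14. Relative to the array median, 8 members were highest on the 6w Tyk2+/+ array, 14 on the 11w array of that genotype, and 12 and 20 on the Tyk2-/- arrays of 6w and 11w. Of all genes, 33.5%, 20.6%, 25.3% and 20.7% were highest on these arrays in the same order. On the deposited scale the counts of members were 0, 20, 5 and 29, beside 18.3%, 29.8%, 19.2% and 32.8% of all genes. The sizes of the counts thus depend on the scaling. The members ranked the arrays alike under both scalings, while all genes did not.

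The summed signal of the panel was 798, 822, 939 and 909. In 11w Tyk2+/+ the 15 pan-leukocyte genes summed to 297, against 227, 233 and 269 on the other arrays in order, and the 19 macrophage and DC genes to 326, against 277, 284 and 320. Without *Cd48*, *Ptpn6* and *Aif1*, the sum of the panel was 748, 773, 835 and 857. Without the first 2 the pan-leukocyte sum was 193, 200, 222 and 236. The 11w Tyk2-/- array then had the highest sum in both. The genes left out were called for high signals in 11w Tyk2+/+, so their removal had to lower that sum most. The new order is therefore no separate result. Within the pan-leukocyte sum, *Arhgdib* alone had 34.5 (Tyk2+/+) and 45.9 (Tyk2-/-) at 11w. The T and NK cell genes summed to 219, 225, 232 and 240 and the B cell genes to 75.4, 79.8, 83.5 and 79.8. All of these sums are on the deposited scale, on which the array medians were 15.7, 16.2, 17.3 and 17.5. Relative to the array median, the median T and NK cell gene stood at log2 values of −0.16, −0.18, −0.15 and −0.13. The median B cell gene stood at −0.15, −0.10, −0.10 and −0.20. At 11w the members beyond the sensory receptor level were *Cd48*, *Ptpn6*, *Aif1*, *Lyz2* and *Arhgdib* in Tyk2+/+, and *Lyz2* and *Arhgdib* alone in Tyk2-/-.

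A wider list of 107 further leukocyte genes, of which 89 were measured, had signals above the array median for 26, 32, 30 and 31 genes and above 2 times the median for 2, 2, 2 and 4. The 95th percentile of the sensory receptor genes was passed by 10, 10, 8 and 7 of them (11.2%, 11.2%, 8.99% and 7.87%), beside 3.70%, 3.70%, 9.26% and 3.70% of the panel, so on 3 of the arrays the share was larger in the wider list. *Lilrb4a*, an inhibitory receptor of myeloid cells, had 10.5, 11.4, 17.4 and 11.4. It rose with age in Tyk2+/+ (0.73) and was lower in Tyk2-/- at 11w (−0.61), and no other gene of the 89 was called in these comparisons. Its highest signal, in 11w Tyk2+/+, was 1.003 times the array median and below the sensory receptor level of 25.8. By the rule for genes high on 1 array alone, it was the only 1 of the 89 on that array (1.12%). Of all genes 1.27% met the rule there, and of the sensory receptor genes 1.53%. As the rule was set after the panel's values were seen, the shares of the panel and the wider list are not set against each other. *Fcgr4*, an Fc receptor of myeloid cells, rose with age in Tyk2-/- but was below the median on every array, at 9.12, 7.59, 12.3 and 11.9, and is named here after its values were seen. *Cx3cr1*, the fractalkine receptor of resident macrophages, was chosen after its values were seen and had 21.4, 24.1, 37.1 and 28.0, with differences (0.79 with age in Tyk2+/+) that were not called.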

How the data were processed

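Gene expression was measured with Affymetrix Clariom D mouse arrays after labelling with the GeneChip WT Pico kit, on 1 pool of sorted β-cells per group. The deposited table gives normalized signal intensities for the 4 arrays, made in Affymetrix Expression Console according to the submitters' processing notes. The background correction and normalization are not given in the sources used here. The values run from 4.33 to 999966 and were taken as linear. Of 65956 features, 30638 had 1 gene symbol in the platform annotation, 2176 had several and 33142 had none. A gene with several features (354 of 30176) was represented by the one with the highest mean signal.

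Log2 differences and Z scores were computed in Python 3.11.15 with NumPy 2.4.6 and pandas 2.3.3, and figures were drawn with matplotlib 3.10.9. The study's methods give the limits of Z and ratio but not the calculation of Z, and print the ratio limits with the signs reversed, so they were read as above 1.5 and below 0.66. The calling was tested on simulated data. The members, the further lists and the tests were chosen with earlier results of these data known. Genes named with values are *Ptprc*, called members, members at 4 or more times an array median (none), a set of lineage-defining genes, and the rest of a group where it is listed in full. Alternatives changed the array scaling, the SD behind Z, the limits, the filter on dim genes, the feature used for a gene, a pseudocount (16) and the level counted against. No array could be left out, and precision is limited by the number of arrays.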

Additional observations from a re-analysis of the deposited data

Results flagged for a closer look

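The change of *Ptpn6* with age in Tyk2+/+ exceeded that in Tyk2-/- by 1.24 on the log2 scale, as it rose in one genotype (19.3 to 45.2) and had 19.0 and 18.8 in the other. The genotype difference of *Cd48* at 11w was below that at 6w by 1.03 (−1.03), with signals of 30.0 and 14.9 at 11w and 14.2 and 14.4 at 6w. Both were picked out because the single arrays of the groups moved in opposite directions, by little in one of the pairs, and neither difference was tested.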

How the results depend on the processing

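With 1 array per group, an array's own error cannot be separated from age or genotype, and no paired analysis was possible because no group has replicates. Signals near the array median are close to those of most sensory receptor genes, which limits what can be read from dim members. The 3 members called with age in Tyk2+/+ became 1 with arrays centred on the median (*Cd48*) and 1 with 1 SD for all features (*Ptpn6*). They became 2 (*Cd48* and *Ptpn6*, without *Aif1*) with quantile normalization, with the narrower window and with a ratio above 2 or below 0.5 alone. The cause was not tested. *Cd48* and *Ptpn6* at 11w, and the absence of called members in the remaining 2 comparisons, were the same under all alternatives of the calling; the mean over a gene's features could not alter a member, as each has 1 feature. The median age difference of the members turned from 0.12 to −0.0277 (centred) and −0.0246 (quantile) in Tyk2+/+ and moved from 0.11 to 0.00672 and 0.0143 in Tyk2-/-, since these scalings remove the shift of the array medians. Members above the level they were counted against numbered 0, 0, 2 and 1 at 2 times the array median and 2, 2, 5 and 2 at the 95th percentile of the sensory receptor genes. At the median of features with 1 gene symbol they numbered 11, 11, 12 and 13, against 19, 13, 16 and 18 in the main count.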

Other observations

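Among the further leukocyte genes, *Zap70* and *Cd244a* had exactly equal signals on all 4 arrays (13.7 and 13.3), as did 38 features of the table, and no change can be read from them. No member of the marker panel was equal on all 4 arrays, but *C1qc* had the same signal on both Tyk2+/+ arrays. Of the further genes, the neutrophil marker *Ly6g* had 41.2, 30.7, 31.3 and 47.9 and the immunoglobulin heavy chain gene *Ighm* had 13.8, 14.5, 13.8 and 19.9, with the highest signal of each in 11w Tyk2-/-. These genes were chosen after their values were seen, and none of their differences was called.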
